A study of Mus musculus with 14 samples.

Results

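The T-box factors of the primitive streak and the heart are a family of 10 transcription factor genes followed here in differentiating mouse embryonic stem (ES) cells: T (Brachyury), Eomes, Tbx1, Tbx2, Tbx3, Tbx4, Tbx5, Tbx6, Tbx18 and Tbx20. They were chosen by name, and each needed a probe set that the platform annotation assigns to 1 gene symbol. This held for 9 of the 10 genes, out of 19938 genes named in this way on the array, each through 1 probe set. T was found under 0 listed probe sets by symbol, synonym, gene identifier or transcript accession, so it is not analysed here.

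The cells were ES cells that formed embryoid bodies, aggregates in which mesoderm arises, and gene expression was measured on 14 arrays, 1 per sample. In the induced groups doxycycline at 1 µg/ml, given from day 2, switched on GATA2, ER71/Etv2, which is an ETS factor, and Scl (gene symbol Tal1). Scl is named in titles and genotypes but not in the design text. Induced cells were taken after 6 h on day 2.25 (1 array), after 12 h on day 2.5 (3 arrays) and after 24 h on day 3 (3 arrays), and untreated control cells, whose genotype is labelled wild-type although the source names the same lines, on the same days (1, 3 and 3 arrays). Replicates 1 and 2 came from the line named iEGS and replicate 3 from a line named iB1. All groups shared maintenance on PMEF feeder cells and a differentiation medium with fetal calf serum, ascorbic acid and MTG. No group received doxycycline without the factors, so a difference between induced and control cells includes any effect of doxycycline itself. Values are RMA signals on the log2 scale, so a difference of 1 is 2-fold, and levels are compared only within a gene, because each gene has its own probes.

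T-box factors bind DNA through a shared domain, the T-box, and act as activators or repressors. In the mouse embryo T and Eomes mark the primitive streak, where epiblast cells become mesoderm and endoderm, and Tbx6 marks the presomitic mesoderm that follows. Others act later: Tbx5 and Tbx20 in heart muscle, Tbx2 and Tbx3 as repressors that hold back chamber muscle genes, Tbx1 in the pharynx and outflow tract, Tbx18 in the sinus horns and the outer layer of the heart, and Tbx4 in the hindlimb and lung. Blood and endothelial precursors arise from mesoderm of the same streak.

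The labels held against the induced genes: Etv2, Gata2 and Tal1 were higher in all 7 induced samples than in their same-day, same-number controls, and rose by 3.11, 4.44 and 2.48 on the log2 scale at 12 h and by 1.94, 3.95 and 2.30 at 24 h. The 10 pluripotency markers were all above the level of sensory receptor genes in all 6 groups. That level is the 95th percentile of 1194 olfactory and vomeronasal receptor genes, which these cells have no known use for, and a gene below it is called dim. The level was taken per group. It ran from 4.21 in induced 6 h to 4.88 in induced 24 h cells, so an equal signal can be dim in 1 group only. Of 8 heart muscle markers 1 to 3 were dim, with Myl2 dim throughout, and of 15 feeder fibroblast markers 4 to 8 were dim, with Col5a2, Postn, Lum and Mfap5 dim throughout. Replicate 3 of induced 24 h stood apart. It correlated with the remaining arrays at 0.95 on average, where no other array was below 0.969, and the differences of the T-box genes and of the partner and marker lists that use it are also given without it.

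Of the members that differed between induced and control cells, Eomes, Tbx6 and Tbx20 have an entry in the RefSeq promoter table (GRCm38.p6), and the 250 bases before the start are shown because these genes moved in different ways. Eomes lies on the plus strand (chr9:118477939-118478188), Tbx6 on the plus strand (chr7:126781233-126781482) and Tbx20 on the minus strand (chr9:24774304-24774553). Capitals mark TATAA and CCAAT, a pair of short promoter motifs chosen after the sequences were read.
Eomes: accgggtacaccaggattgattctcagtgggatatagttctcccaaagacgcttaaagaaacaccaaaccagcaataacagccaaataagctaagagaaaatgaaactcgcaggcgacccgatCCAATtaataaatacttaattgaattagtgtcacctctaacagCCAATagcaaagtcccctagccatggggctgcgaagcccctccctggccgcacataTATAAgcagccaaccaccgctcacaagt
Tbx6: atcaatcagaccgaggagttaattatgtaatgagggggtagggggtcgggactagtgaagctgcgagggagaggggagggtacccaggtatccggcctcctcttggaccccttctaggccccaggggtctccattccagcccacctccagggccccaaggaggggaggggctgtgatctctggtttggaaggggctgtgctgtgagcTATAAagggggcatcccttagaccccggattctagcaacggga
Tbx20: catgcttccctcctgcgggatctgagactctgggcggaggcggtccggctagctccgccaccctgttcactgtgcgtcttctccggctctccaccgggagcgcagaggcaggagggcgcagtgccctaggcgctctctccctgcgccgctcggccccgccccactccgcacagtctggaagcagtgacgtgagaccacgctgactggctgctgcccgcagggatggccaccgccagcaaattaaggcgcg
TATAA starts 28 bases before the start of Eomes and 43 bases before that of Tbx6, and 22.8% of the 32851 promoters in the table hold it on either strand within the same 250 bases. CCAAT occurs at 2 places in the Eomes promoter (127 and 84 bases before the start) and within these bases in 33.8% of all promoters. Neither is in the Tbx20 promoter, which is also the richest in G and C of these promoters (68.8%, against 59.6% for Tbx6 and 46.4% for Eomes). Motifs of the induced factors and of 2 other factor classes were searched on both strands of the full 300 bases, 250 before and 50 after the start. The ETS motif GGAAGT is found in 23.8% of all promoters and the GATA factor motif AGATAA in 11.2%. The E-box motif CAGCTG, which bHLH factors such as Scl can bind, is found in 16.3%. The T-box motif GTGTGA is found in 14.5% and the TCF/LEF motif CTTTGA in 16.0%. None of these letters is in the windows of Eomes, Tbx6 or Tbx20. Among the other members in the table, the Tbx18 window holds GGAAGT, the Tbx4 window CAGCTG, and the T window CAGCTG and CTTTGA, while the windows of Tbx1 hold none. These are matches of letters in short windows, and binding was not measured.

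Induced cells lost most of the Eomes signal within 24 h, while it stayed high in control cells. Eomes activates Mesp1 and the definitive endoderm genes in the mouse streak. After 6 h its signal was 8.77, against 9.43 in the day 2.25 control, a log2 difference of -0.66 between single arrays with no replicate check. After 12 h it was 9.03, 8.36 and 8.91 in replicates 1 to 3, against 9.91, 9.27 and 9.80 in the day 2.5 controls. Every induced array lay below every control array, and the differences within a replicate number were -0.88, -0.91 and -0.89. After 24 h it was 6.99, 7.32 and 7.11, against 10.32, 10.29 and 10.06 in the day 3 controls. Again no induced array reached the lowest control array.

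In a limma fit of the 12 replicated arrays, Eomes fell by 0.90 ± 0.202 (SE) at 12 h (1.86-fold, adjusted p = 0.0411) and by 3.08 ± 0.202 at 24 h (8.48-fold, adjusted p = 3.89e-07). The effect at 24 h differed from that at 12 h by -2.19 ± 0.285 (adjusted p = 0.00358). In this unpaired fit Eomes was the 1 of 9 members for which the test passed (0 higher, 1 lower), beside 0.426% of all genes (0.1% higher, 0.326% lower). With the replicate number as a block, Tbx6 and Tbx20 passed as well (limma adjusted p = 0.0187 and 0.0401), where 163 of all genes did. For Eomes, induced 24 h cells were also lower than induced 12 h cells, by -1.62 ± 0.202 (adjusted p = 0.000696), whereas day 3 controls stood 0.56 ± 0.202 above day 2.5 controls (adjusted p = 0.435). All 3 induced 24 h arrays were below each of the other 11 arrays. The call at 12 h was lost when the fit held the day 2.5 groups alone (adjusted p = 0.117), without replicate 1, 2 or 3 (0.087, 0.138 and 0.486), and without any of 8 single arrays (0.0601 to 0.215). Leaving out replicate 2 of induced 12 h gave the smallest difference, -0.69. The decrease between the induced times was lost without replicate 3 (-1.53, adjusted p = 0.072), and the call for the change of effect without replicate 2 (-2.25, adjusted p = 0.0522) or 3 (-2.25, adjusted p = 0.174). Without replicate 3 of induced 24 h alone, the difference at 24 h was -3.07 (adjusted p = 3.09e-06), the change of effect -2.17 (adjusted p = 0.00649) and the difference between induced times -1.61 (adjusted p = 0.00296). In bulk RNA, fewer Eomes-expressing cells and less Eomes RNA per cell cannot be told apart, and the same holds for every gene below.

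**Figure D1:**
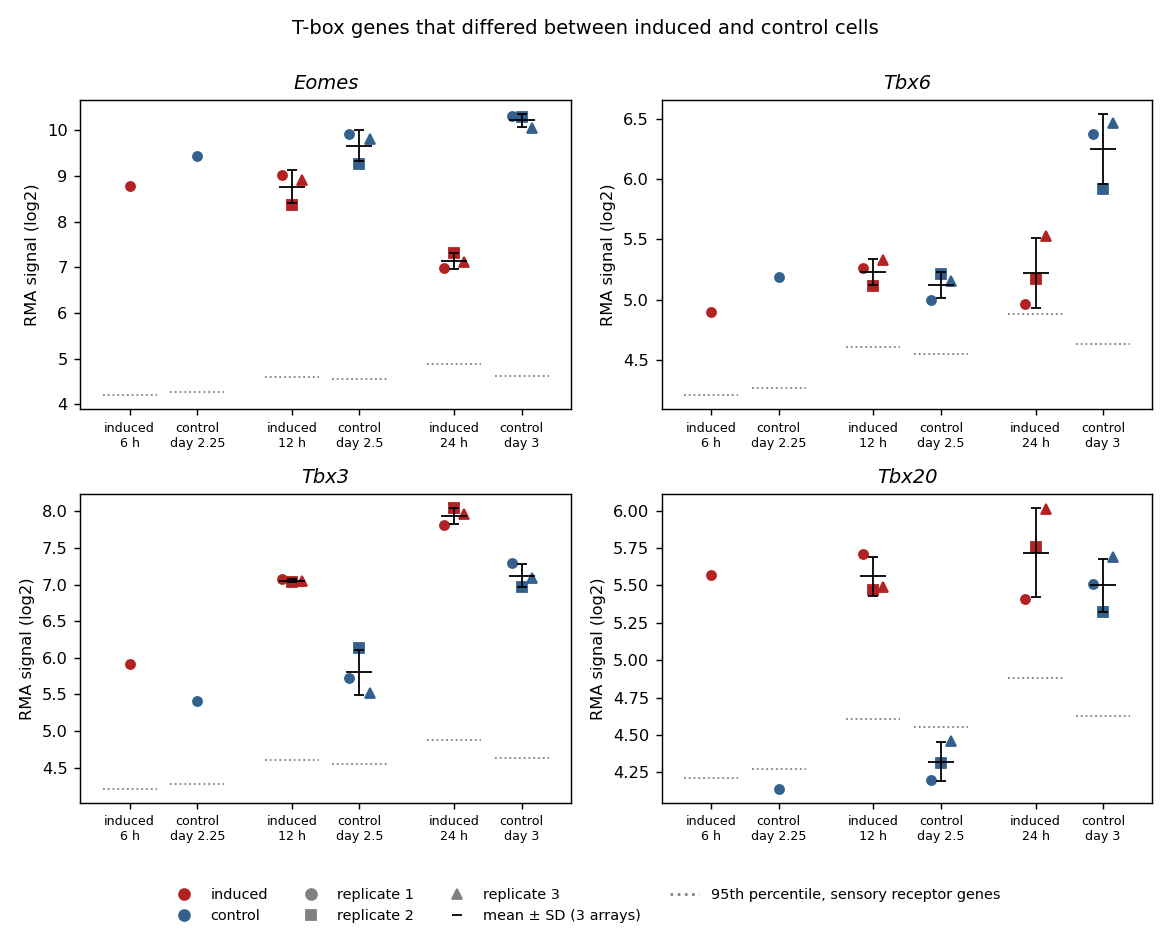
RMA signal (log2, vertical axis, scaled per gene) of the 4 T-box genes with a called difference, by group, induced groups left of the control of the same day. Points are arrays, black bars the mean ± SD of 3 arrays, and dotted lines the 95th percentile of sensory receptor genes. Eomes falls to about 7.1 in induced 24 h cells, against 10.2 in day 3 controls; Tbx6 separates only on day 3; Tbx3 is higher at both times; Tbx20 is higher at 12 h and overlaps its controls on day 3.

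Tbx6, a regulator of presomitic mesoderm, was higher in day 3 than in day 2.5 controls, and this difference was not found between induced cells of the same days. After 6 h its signal was 4.90, against 5.19 in the control. After 12 h it was 5.26, 5.11 and 5.33, against 5.0, 5.21 and 5.15 in day 2.5 controls, and the arrays overlapped. After 24 h it was 4.96, 5.17 and 5.53, against 6.37, 5.92 and 6.46 in day 3 controls, with no overlap. The induced 24 h arrays overlapped those of induced 12 h and of day 2.5 controls, and the day 3 controls alone stood apart.

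Day 3 controls exceeded day 2.5 controls in Tbx6 by 1.13 ± 0.176 (2.2-fold, limma adjusted p = 0.00559), a call lost without replicate 2 (1.34, adjusted p = 0.0988) or 3 (1.05, adjusted p = 0.168). Between induced 24 h and induced 12 h cells the difference was -0.01 ± 0.176, with a 95% interval of -0.39 to 0.36. Against the control of the same day Tbx6 stood at 0.11 ± 0.176 at 12 h (adjusted p = 0.999) and fell by 1.03 ± 0.176 at 24 h (2.05-fold, adjusted p = 0.00198). The effect at 24 h minus that at 12 h was -1.15 ± 0.248 and missed the threshold (adjusted p = 0.072). It passed with the replicate number as a block (adjusted p = 0.0187) and without replicate 3 of induced 24 h (-1.30, adjusted p = 0.0235) or replicate 2 of control day 3 (-1.31, adjusted p = 0.0374). Without replicate 3 of induced 24 h, Tbx6 differed by -1.19 from day 3 controls (adjusted p = 0.000713) and by -0.17 from induced 12 h cells (adjusted p = 0.867).

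Tbx3, a repressor that also supports the pluripotent state in mouse ES cells, was higher in induced than in control cells at both tested times, on top of a rise in the controls. After 6 h its signal was 5.92, against 5.41 in the control. After 12 h it was 7.07, 7.04 and 7.05, against 5.73, 6.14 and 5.52 in day 2.5 controls. The induced arrays were close together (SD 0.02) and all above the controls. After 24 h it was 7.81, 8.04 and 7.97, against 7.29, 6.97 and 7.09 in day 3 controls, again with no overlap. Induced 12 h arrays lay within the range of the day 3 controls, so those neighbours in the order of groups did not separate.

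Tbx3 rose by 1.26 ± 0.16 at 12 h (2.39-fold, limma adjusted p = 0.000498) and by 0.82 ± 0.16 at 24 h (1.77-fold, adjusted p = 0.00544). The change of the effect between the times was -0.43 ± 0.226 (adjusted p = 0.933). Day 3 controls were 1.32 ± 0.16 above day 2.5 controls (adjusted p = 0.000769), and induced 24 h cells 0.88 ± 0.16 above induced 12 h cells (adjusted p = 0.0105). The 24 h call was lost without replicate 2 (0.70, adjusted p = 0.134) and without replicate 3 (0.80, adjusted p = 0.098), and the 12 h call without replicate 3 (1.12, adjusted p = 0.0578). The difference between control days was 1.2 without replicate 3 (adjusted p = 0.0909), and that between induced times lost its call without replicate 2 or 3 (0.194 and 0.185) or without replicate 2 or 3 of induced 12 h (0.0524 and 0.0511). Without replicate 3 of induced 24 h, Tbx3 stood 0.81 above day 3 controls (adjusted p = 0.016) and 0.87 above induced 12 h cells (adjusted p = 0.0288). Of the 10 pluripotency markers 0 rose and 2 fell at 12 h, where 0.577% of all genes fell, and 0 rose and 4 fell at 24 h, where 3.43% of all genes fell. With replicate 3 of induced 24 h left out, 3 of these markers fell at 24 h.

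Tbx20, a factor of heart muscle and of the heart's inner lining, had overlapping arrays in induced 12 h cells and day 3 controls. Their means were 5.56 and 5.5, and no test compared these groups. After 6 h the Tbx20 signal was 5.57, against 4.14 in the control. This log2 difference of 1.43 (2.69-fold) made it the 1 member of 9 past 2-fold at 6 h, beside 0.356% of all genes (0.221% higher, 0.135% lower), with 1 array on each side. After 12 h it was 5.71, 5.47 and 5.49, against 4.2, 4.31 and 4.46 in day 2.5 controls, with no overlap. After 24 h it was 5.41, 5.76 and 6.01, against 5.51, 5.32 and 5.69 in day 3 controls, and the arrays overlapped. In the day 2.25 and day 2.5 controls Tbx20 was dim, so its differences at 6 h and 12 h may be understated.

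Tbx20 rose by 1.23 ± 0.166 at 12 h (2.35-fold, limma adjusted p = 0.0008) and stood at 0.22 ± 0.166 at 24 h (adjusted p = 0.574, 95% interval -0.14 to 0.58). Day 3 controls were 1.18 ± 0.166 above day 2.5 controls (2.27-fold, adjusted p = 0.00264), a call lost without replicate 2 (1.27, adjusted p = 0.176) or 3 (1.16, adjusted p = 0.0797). Induced 24 h cells stood 0.17 ± 0.166 above induced 12 h cells (adjusted p = 0.749). The effect at 24 h minus that at 12 h was -1.01 ± 0.235 (adjusted p = 0.105). It passed with the replicate block (adjusted p = 0.0401) and without replicate 3 of induced 24 h (-1.16, adjusted p = 0.0362). The 12 h call was lost without replicate 2 (1.27, adjusted p = 0.0823). Without replicate 3 of induced 24 h, Tbx20 stood 0.08 above day 3 controls (adjusted p = 0.949) and 0.03 above induced 12 h cells (adjusted p = 0.992).

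The remaining 5 members, Tbx1, Tbx2, Tbx4, Tbx5 and Tbx18, passed in no comparison. Tbx5, which drives heart muscle and forelimb development, ranged from 3.17 to 4.03 over the 14 arrays and was dim in all 6 groups. Tbx18 (3.43 to 3.93) and Tbx4 (4.14 to 4.72) were dim in all 6 groups as well. Tbx1 ranged from 4.71 to 5.59 and Tbx2 from 4.88 to 5.37, with group means above the sensory receptor level in every group. Among the 4 replicated groups, neighbours in the order of each gene's levels overlapped for all 5 genes.

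Against the control of the same day these 5 genes stood between -0.23 and 0.19 at 12 h and between -0.22 and 0.09 at 24 h. Their 95% intervals reached no further than -0.65 and 0.55 at 12 h and -0.64 and 0.46 at 24 h. Dim signals are compressed by RMA, so these bounds apply to the measured signal. The highest Tbx1 value, 5.59, was replicate 3 of induced 24 h, and the other arrays of that group were at 4.95 and 4.97. Tbx1 stood at -0.13 against day 3 controls when that replicate was left out (adjusted p = 0.865), and none of the 5 genes passed.

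**Figure D2:**
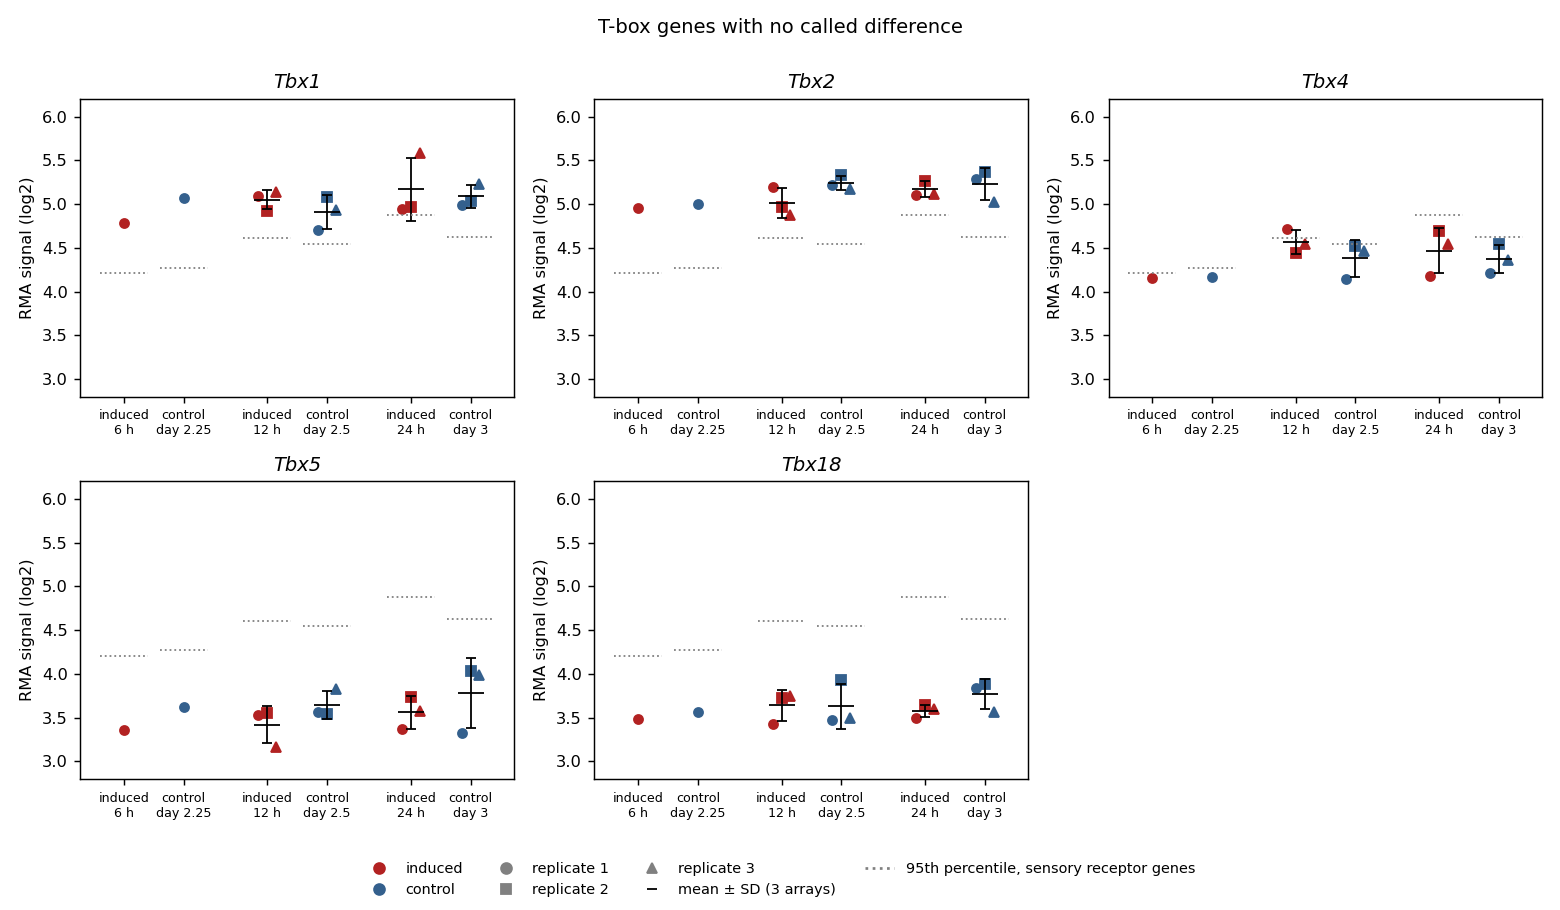
RMA signal (log2, vertical axis, 1 scale for all panels) of the 5 T-box genes with no called difference, by group, induced groups left of the control of the same day. Points are arrays, black bars the mean ± SD of 3 arrays, dotted lines the 95th percentile of sensory receptor genes. Tbx4, Tbx5 and Tbx18 have group means below the dotted line everywhere, Tbx1 and Tbx2 above it.

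Counted together, 2 of 9 members rose and 1 fell at 12 h, where 1.39% of all genes were called (0.813% higher, 0.577% lower). At 24 h 1 rose and 2 fell, where 5.46% were called (2.03% higher, 3.43% lower). In day 3 against day 2.5 controls 3 rose and 0 fell (0.757% of all genes called, 0.562% higher and 0.196% lower), and in induced 24 h against induced 12 h cells 1 rose and 1 fell (1.81%, 0.557% higher and 1.25% lower). The arrays of induced and control cells did not overlap for 3 members at 12 h and 3 at 24 h, the called ones, while 14.5% and 18.5% of all genes showed no overlap. The members' median log2 difference was 0.11 at 12 h and -0.06 at 24 h, against -0.01 and 0.00 over all genes. The comparisons with one control group share its arrays, so a rise in day 3 controls and a lower value in induced 24 h cells against them are not separate evidence.

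**Figure D3:**
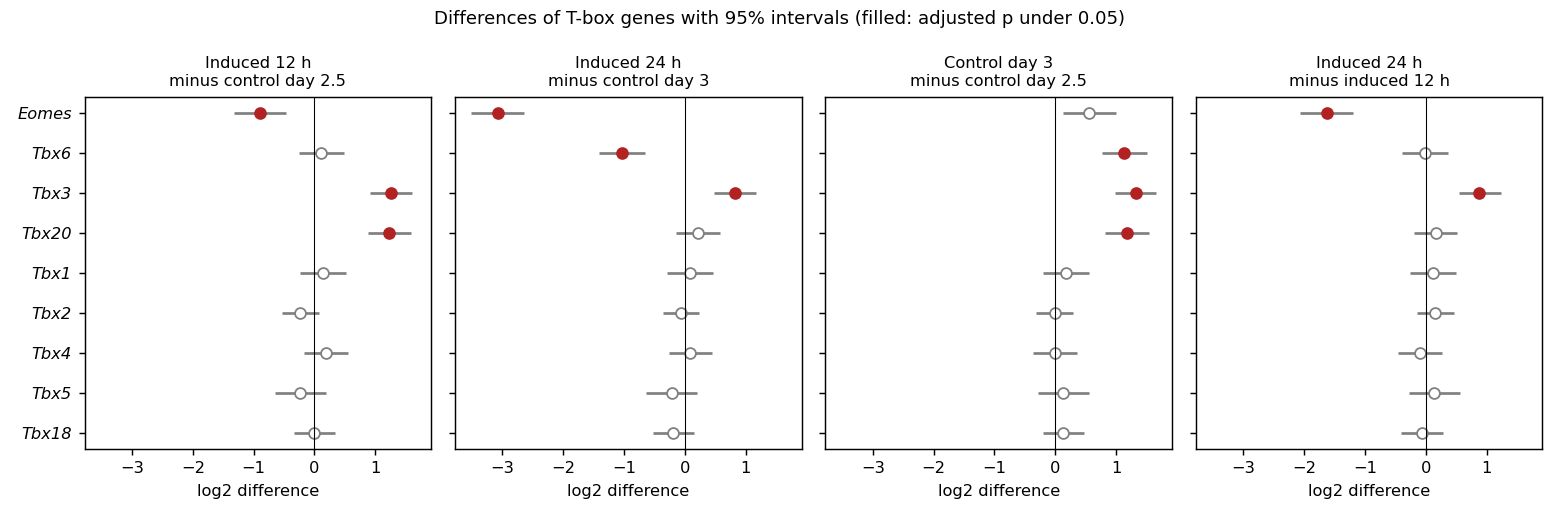
Log2 difference (horizontal axis) of the 9 T-box genes in 4 comparisons, with 95% intervals from limma; filled points have an adjusted p under 0.05. Eomes is lower in induced cells at both times, Tbx6 at 24 h only, Tbx3 is higher at both and Tbx20 at 12 h, and Tbx6, Tbx3 and Tbx20 are higher in day 3 than in day 2.5 controls.

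Of 7 further T-box family genes, 6 had a probe set with 1 symbol (Tbx15, Tbx19, Tbx21, Tbx22, Tbr1 and Mga), Tbx10 had none, and 0 of the 6 passed in any comparison, nor at 24 h when replicate 3 of induced 24 h was left out. At 12 h their differences lay between -0.27 (Tbx22) and 0.13 (Tbx19), and at 24 h between -0.46 ± 0.263 (Mga) and 0.22 ± 0.171 (Tbx19). Mga, which joins a T-box to a second DNA-binding domain, was the 1 gene of these with signal far above the sensory receptor level (8.43 in induced 24 h cells and 8.89 in day 3 controls). Tbx15, Tbx19, Tbx22 and Tbr1 were dim in every group and Tbx21 in induced 24 h cells, so low signal limits these genes.

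Most listed genes that act with the streak factors were lower in induced 24 h cells. The partner and marker lists were chosen with earlier results of these data known. Their counts beside the shares of all genes are therefore description only. A list of 20 inducers, partners and targets of T, Eomes and Tbx6 had 6 members that fell and 1 that rose at 12 h, beside 0.577% and 0.813% of all genes, with a median log2 difference of -0.42, against -0.01 over all genes. At 24 h 13 fell and 1 rose, beside 3.43% and 2.03% of all genes, with a median of -1.49, against 0.00. In day 3 against day 2.5 controls 10 rose and 0 fell, beside 0.562% and 0.196% of all genes. When replicate 3 of induced 24 h was left out, 12 fell and 1 rose at 24 h, with a median of -1.44. Mesp1, a bHLH factor of early heart mesoderm and a direct Eomes target in the mouse, was at 4.49, 5.14 and 4.61 in induced 24 h cells, against 9.15, 9.32 and 8.84 in day 3 controls. It fell by 4.36 ± 0.232 (limma adjusted p = 5.41e-08), and induced 24 h arrays also lay below all day 2.5 controls, the lowest of which was at 6.08. Its induced 24 h mean was dim, which may understate the difference.

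Foxa2, a forkhead factor of endoderm and node, fell by 3.53 ± 0.226 at 24 h (adjusted p = 3.1e-07) and already by 2.92 ± 0.226 at 12 h. Sox17, another endoderm gene of the list, named after its values were seen, did not fall. It stood at 0.63 ± 0.195 at 12 h and 0.05 ± 0.195 at 24 h (0.16 without replicate 3 of induced 24 h), and passed at neither. In induced 24 h cells Sox17 was 1.12 ± 0.195 above induced 12 h cells (limma adjusted p = 0.00829). Mixl1, a homeobox gene of the streak, fell by 3.84 ± 0.254 at 24 h (adjusted p = 4e-07), and Sp5, a Wnt target gene, by 3.03 ± 0.206 (adjusted p = 5.22e-07). The riser at both times was Bmp4, a mesoderm-inducing ligand gene, named after its values were seen (1.64 ± 0.154 at 12 h and 1.49 ± 0.154 at 24 h). Mesp2 and Msgn1, presomitic genes linked to Tbx6 and also named after their values were seen, stood at -0.48 and -0.14 at 12 h, where neither passed, and fell by 1.88 and 1.43 at 24 h. In day 3 against day 2.5 controls they rose by 1.22 and 1.41, as Tbx6 did. Not every gene of the list moved this way, as Dll1 and Ripply2 show, also named after their values were seen. Dll1 rose by 1 between the control days and fell by 0.68 at 24 h. Its 24 h call was lost without replicate 3 of induced 24 h (-0.62, limma adjusted p = 0.0508). Ripply2, dim in both day 3 groups, stood at -0.20 between the control days and 0.10 at 24 h (0.06 without that array) and passed in neither. Without replicate 3 of induced 24 h the differences at 24 h were -4.29 for Mesp1, -3.64 for Foxa2, -3.83 for Mixl1, -3.02 for Sp5, 1.41 for Bmp4, -1.88 for Mesp2 and -1.60 for Msgn1, and all 7 passed.

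In the list of 20 heart partners and targets, 1 gene rose and 0 fell at 12 h, and 1 rose and 5 fell at 24 h, with medians of 0.05 and -0.15, against -0.01 and 0.00 over all genes. Over all genes 0.813% rose and 0.577% fell at 12 h, and 2.03% rose and 3.43% fell at 24 h. The riser at 12 h was Fgf10, a ligand gene of the second heart field (1.41 ± 0.229, limma adjusted p = 0.00368), named after its value was seen. At 24 h Myl7, the atrial myosin light chain gene, fell by 2.08 ± 0.169 (adjusted p = 2.41e-06), Gata4, a partner of Tbx5 and Tbx20 in heart muscle, by 1.60 ± 0.169 (adjusted p = 2.84e-05) and Isl1 of the second heart field by 1.12 ± 0.233 (adjusted p = 0.00924). Isl1 was dim in induced 24 h cells (mean 4.08), and its day 3 controls were uneven, at 5.57, 4.54 and 5.48. Wt1, a gene of the heart's outer layer, rose by 0.63 ± 0.131 (adjusted p = 0.00851). Nkx2-5, the homeobox partner of Tbx5 and Tbx20, also named after its values were seen, stood at 0.07 ± 0.228 at 12 h and 0.03 ± 0.228 at 24 h. At 24 h 1 heart gene rose and 5 fell without replicate 3 of induced 24 h; Bmp2 lost its call (-0.99, adjusted p = 0.108) and Hand1 gained one (-1.38, adjusted p = 0.00627), both named after their values were seen. Without that array Myl7 stood at -2.17, Gata4 at -1.64, Isl1 at -1.21, Wt1 at 0.68 and Nkx2-5 at -0.22, with the calls unchanged for these 5 genes. Myl7, Gata4 and 4 other genes had risen between the control days, and Wt1 had fallen.

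**Figure D4:**
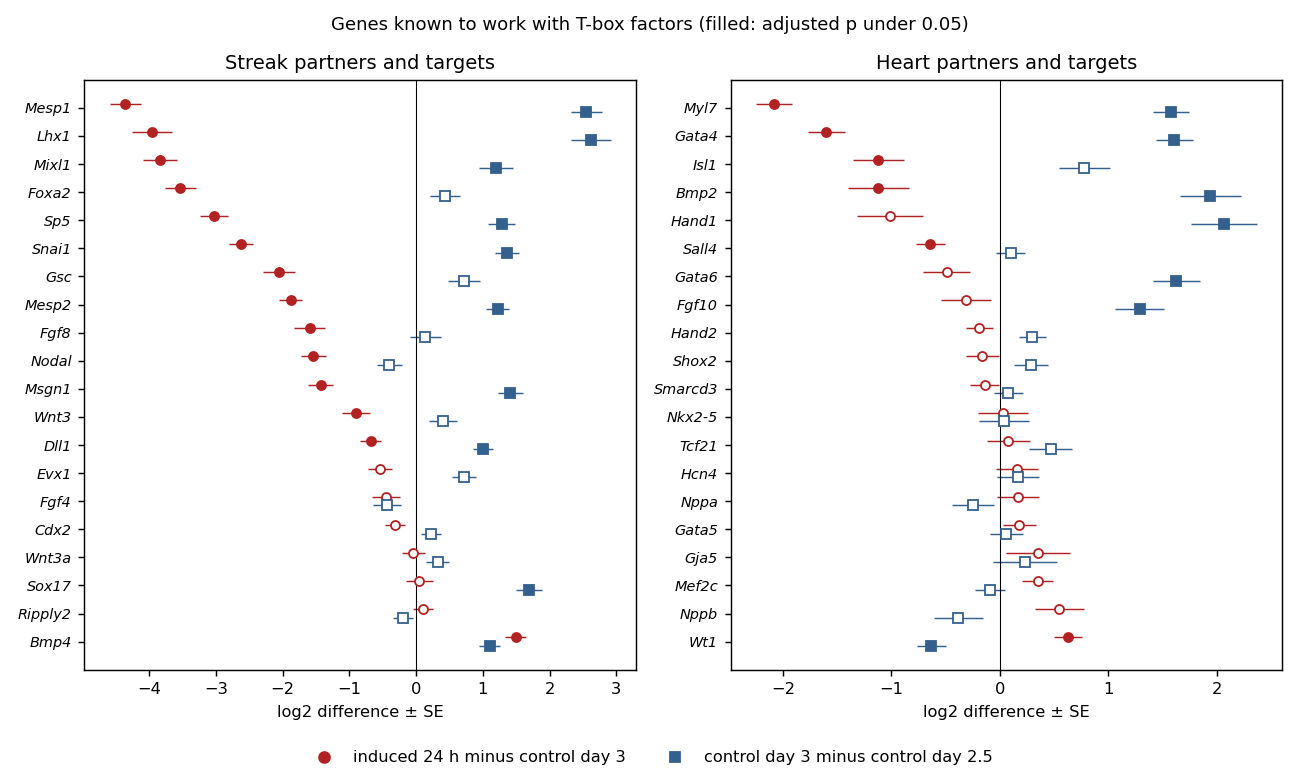
Log2 differences ± SE (horizontal axis) of 20 streak and 20 heart genes that work with T-box factors, induced 24 h minus day 3 control in red and day 3 minus day 2.5 control in blue; filled points have an adjusted p under 0.05. In the streak list 13 genes are lower and 1 is higher in induced 24 h cells, and 10 are higher in day 3 controls; in the heart list 5 are lower and 1 is higher.

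Markers of other cells moved with these differences. The mean signal of 8 endothelial markers was 5.56 after 6 h, against 4.86 in the control. It was 5.86 to 6.28 in induced 12 h arrays, against 4.71 to 4.98 in day 2.5 controls, and 6.88 to 7.74 in induced 24 h arrays, against 5.01 to 5.19 in day 3 controls. Of the 8 markers 5 rose and 0 fell at each time, and Emcn was dim in all groups. The 5 risers were not the same genes at both times. Tie1 rose at 24 h but not at 12 h (mean 4.58, against 4.61 in day 2.5 controls). Kdr passed at 12 h but not at 24 h (mean 7.71, against 7.09 in day 3 controls). Over all genes 0.813% rose and 0.577% fell at 12 h, and 2.03% rose and 3.43% fell at 24 h. At 24 h 5 endothelial markers rose and 0 fell without replicate 3 of induced 24 h as well. The mean of the 10 pluripotency markers was 7.62 to 8.16 in induced 24 h arrays, against 8.49 to 8.89 in day 3 controls. The part of these shifts in the T-box differences was not tested. Feeder fibroblast markers moved less, with means of 4.96 to 5.21 in induced 24 h arrays, against 5.03 to 5.22 in day 3 controls. At 24 h 1 of 15 was higher and 1 lower, beside 2.03% and 3.43% of all genes. Without replicate 3 of induced 24 h, 0 were higher and 0 lower.

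No member's induction effect differed between the lines by the test, and levels were not compared between the lines. The induction effect, averaged over 12 h and 24 h, was -1.92 in iB1 and -2.02 in iEGS for Eomes, and 1.2 and 0.96 for Tbx3. It was -0.38 and -0.50 for Tbx6, and 0.67 and 0.75 for Tbx20. The difference between lines lay between -0.47 ± 0.281 (Tbx5) and 0.35 ± 0.234 (Tbx18) over the 9 members, with limma adjusted p of 0.943 or more. With 1 iB1 array per group, 0 of all genes passed this limma test and 519 (2.6%) had an unadjusted p under 0.05.

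Genes with the most similar pattern were named by Pearson's correlation over the 14 arrays, among 6402 genes with a range of at least 1. They were Agpat3 (0.983), Fgf5 (0.977) and Pmaip1 (0.973) for Eomes, and Rgs5 (0.96), Cfc1 (0.945) and Slc44a5 (0.943) for Tbx6. For Tbx3 they were Fgf3 (0.965), Greb1l (0.954) and Tnnt3 (0.944). The closest gene to Tbx20 was Kdr (0.892), the VEGF receptor 2 gene of endothelial and blood precursors, followed by Zfpm1 (0.887) and Krt18 (0.88). The 14 arrays fall into 6 groups that share the induction and the day, and no p is given.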

How the data were processed

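Per the submitters' processing notes, the authors made the deposited log2 values with RMA (background correction, quantile normalization, summary over a probe set) in Affymetrix Expression Console. No tool version was given in the sources used here, nor the set of arrays that RMA took jointly. RMA compresses dim signals and removes shifts shared by most genes. The number of arrays limits the precision.

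Of 35556 probe sets, 21789 had 1 symbol in the platform annotation, 1621 several and 12146 were not listed; 21698 of the 21789 were found by identifier in the RefSeq table of GRCm38.p6, with 0 symbols changed. Per gene the probe set of highest mean over the 14 arrays was kept (19938 genes). The 12 arrays of the 4 replicated groups were fitted with limma 3.58.1 in R 4.3.3 (group means, 8 residual and 6.05 prior degrees of freedom), with Benjamini-Hochberg adjustment over all genes and calls under 0.05. The fit was tested on simulated data with independent noise on each array. That simulation does not cover arrays that deviate together or an array that stands apart. ± is the standard error of a log2 difference. The 6 h arrays (1 per group) have no test.

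The design text speaks of independent experiments; if the replicates are not separate cultures, p-values measure technical spread only. Same-numbered arrays deviated together within a day (correlations of 0.57, 0.34 and 0.26 on day 2.5, and 0.52, 0.16 and 0.26 on day 3), all above the 0.1 required here to call samples paired. Differently numbered arrays also correlated in places, at 0.38 for replicate 3 of induced 24 h with replicate 2 of control day 3 and at 0.17 for replicate 3 of induced 12 h with replicate 2 of control day 2.5. The fit behind the printed errors and p-values is unpaired. The replicate number as a block is another setting, given beside a T-box member's result where it changes the call. The calls of the partner and marker lists and of the genes named from them are unpaired and were not recomputed with the block. Across days the lowest such correlations were 0.041 and -0.0047, so the block over all groups rests on less ground there.

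Named were all members, up to 4 called genes of each partner list with the smallest adjusted p at 24 h, and the 3 genes most correlated with each called member. Members, lists and motifs were chosen with earlier results of these data known. Other settings were a block for the replicate number, a covariate for the line, quantile normalization again, median centring, genes below the 40th percentile left out, the mean of probe sets, array weights, trended robust eBayes, only the compared groups, and leaving out replicates or single arrays. The partner and marker lists without replicate 3 of induced 24 h were added after seeing the data.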

Additional observations from a re-analysis of the deposited data

Results flagged for a closer look

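The induction effect on Eomes differed between the times by a test of the difference itself. It was -3.08 ± 0.202 at 24 h and -0.90 ± 0.202 at 12 h, and the difference of -2.19 ± 0.285 had a limma adjusted p of 0.00358. All 3 same-numbered pairs were lower at both times. Without replicate 2 the difference was -2.25 (adjusted p = 0.0522) and without replicate 3 it was -2.25 (adjusted p = 0.174).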

How the results depend on the processing

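Of 1056 recomputed differences of single members with a test, 1019 kept their direction or stayed uncalled on the same side of the threshold, 28 lost a call, 9 gained one and 0 called values turned in sign. Most of these values belong to results not called in the main fit, which had no call to lose. The Eomes call at 12 h was lost in 1 of 9 other settings. It was also lost in 11 of 15 fits with a replicate or array left out. At 12 h the count of members that fell went from 1 to 0 with only the compared groups. The test of a change of effect from 12 h to 24 h called 1 member lower, 3 with the replicate block, 3 with array weights, 2 with the line as covariate and 2 without dim genes. The added ones were Tbx6, in all 4 of these, and Tbx20, with the block and the weights. The replicate block changed no other member's call. Leaving out a replicate or an array, the counts ranged from 1 to 2 higher and 0 to 1 lower at 12 h. They ranged from 0 to 1 higher and 2 to 2 lower at 24 h, and from 0 to 3 lower for the change of effect. Between the control days 0 to 3 were higher, and between induced 24 h and 12 h cells 0 to 1 higher and 0 to 1 lower. Dropping arrays leaves fewer samples; the cause of the other shifts was not tested. The Tbx20 difference at 6 h was 1.28 with quantile normalization again.

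Over all genes the counts moved more than 1.5 times with array weights (798 at 12 h, 2634 at 24 h, 318 for the change of effect, 471 between control days and 1495 between induced groups, against 277, 1088, 85, 151 and 360). With the replicate block they were 441, 1565, 163, 344 and 742. Quantile normalization again gave 139 for the change of effect, and only the compared groups gave 669 at 24 h and 100 between induced groups. Leaving out replicates or arrays gave 80 to 366 at 12 h, 392 to 1889 at 24 h, 2 to 109 for the change, 17 to 238 between control days and 21 to 727 between induced groups. Low signal limits Tbx4, Tbx5 and Tbx18. In induced 24 h cells Tbx1 (mean 5.17), Tbx2 (5.17) and Tbx6 (5.22) were also little above the sensory receptor level of 4.88, so their differences may be understated.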
